A study of Mus musculus with 227 samples.

Results

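The 34 genes described here are immediate early and stress response genes, chosen by name as members of 13 families whose transcripts are induced within a short time of a stimulus. They were 34 of the 24388 genes with a value in every single cell of the series. They encode AP-1 and ATF factors (Fos, Fosb, Fosl1, Fosl2, Jun, Junb, Jund, Atf3, Maff), EGR, KLF and NR4A factors (Egr1, Egr2, Egr3, Klf2, Klf4, Klf6, Klf10, Nr4a1, Nr4a2, Nr4a3) and Myc. The others are negative regulators of signalling or of mRNA life (Dusp1, Dusp2, Socs3, Nfkbia, Zfp36, Zfp36l1), growth arrest genes (Btg1, Btg2, Gadd45a, Gadd45b, Gadd45g) and the IER genes (Ier2, Ier3, Ier5).

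Long bones were taken from BL6 mice on day 3 after birth, and their cells were sorted into 4 populations of skeletal stem, progenitor and stromal cells. All 4 gates required AlphaV integrin and absence of CD45 and Ter-119. The 6C3+ gate was Thy-6C3+CD105+ and named no Tie2. The THY+ gate was Tie2-Thy+6C3-CD105+, the CSP gate Tie2-Thy-6C3-CD105+ and the mSSC gate Tie2-Thy-6C3-CD105-CD200+. There were 92 6C3+, 72 THY+, 26 CSP and 37 mSSC cells, each captured singly on a microfluidic chip and sequenced with ERCC spike-in RNAs. Values are FPKM, fragments scaled by transcript length and by library total, as deposited. Detection means an FPKM of 1 or more, and the main set is the cells with at least 1000 detected genes: 34 6C3+, 43 THY+, 11 CSP and 37 mSSC cells. No animal or culture is named, so each population is 1 sample, the differences have no replicate check, and no p-value is given. An SD is a spread between cells. Intervals in parentheses after shares are exact Clopper-Pearson 95% intervals that cover counting error only.

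In the main set the median number of detected genes was 2639 in 6C3+, 2835 in THY+, 3033 in CSP and 2534 in mSSC cells. Spike-ins made up, at the median cell, 18.9% of summed FPKM in 6C3+, 20.8% in THY+, 0.000945% in CSP and 0.00117% in mSSC cells. Gene FPKM without spike-ins summed to a median of 366748 in 6C3+, 752613 in THY+, 578425 in CSP and 906237 in mSSC cells. Differences are therefore also given with the gene FPKM of every cell rescaled to a sum of 1000000. The labels name no plate. Library index numbers form 1 set for 6C3+, another for THY+ and another shared by CSP and mSSC, and each set is taken here as a plate. Plate and population therefore cannot be told apart except between CSP and mSSC. Transcripts of the antigens named in the CSP and mSSC gates did not follow those gates. The mSSC gate required CD200, and the CSP gate set no condition on it. Cd200 was detected in 9 of 11 CSP cells (81.8%, 48.2 to 97.7) and 8 of 37 mSSC cells (21.6%, 9.83 to 38.2). Eng encodes CD105, which the CSP gate required and the mSSC gate excluded. It was detected in 0 of 11 CSP cells (0%, up to 28.5) and 8 of 37 mSSC cells (21.6%, 9.83 to 38.2), and these intervals overlapped. A value of 0 does not show that a transcript was absent from the cell. Directions between the cells labelled CSP and the cells labelled mSSC rest on those labels.

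Immediate early genes are switched on without new protein synthesis, through MAP kinase, calcium and cytokine signalling that acts on factors already bound near their promoters, such as SRF at the CArG box and CREB at the cyclic AMP response element. Their mRNAs are short-lived, and several encode proteins that shut the response down again. In cells released from solid tissues the same genes are known to be induced by enzymatic digestion and sorting, and in cartilage and bone Fos and other AP-1 genes also have roles in development. Promoter sequence was found in the RefSeq table (build GRCm38.p6) for 28 of the 34 members. Egr1, Egr3, Fosl1, Ier2, Klf10 and Myc had no entry and were not searched. The 250 bases before the transcript start of 5 members are shown because these genes stand for the induced group in the values below: Fos and Btg2 moved together between cells in 3 of the populations, Nr4a1 and Zfp36 formed another such pair, and Dusp1 was within 2-fold of mSSC in all 3 other populations. Sequences run 5′ to 3′ on the strand of the gene, and capitals mark matches to the motifs named after them.
Fos (chr12:85473640-85473889, plus strand): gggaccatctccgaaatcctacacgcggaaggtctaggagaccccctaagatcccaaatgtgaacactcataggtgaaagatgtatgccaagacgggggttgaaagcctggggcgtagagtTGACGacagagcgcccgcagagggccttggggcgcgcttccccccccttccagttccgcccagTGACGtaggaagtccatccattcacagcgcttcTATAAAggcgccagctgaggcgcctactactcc
Btg2 (chr1:134079156-134079405, minus strand): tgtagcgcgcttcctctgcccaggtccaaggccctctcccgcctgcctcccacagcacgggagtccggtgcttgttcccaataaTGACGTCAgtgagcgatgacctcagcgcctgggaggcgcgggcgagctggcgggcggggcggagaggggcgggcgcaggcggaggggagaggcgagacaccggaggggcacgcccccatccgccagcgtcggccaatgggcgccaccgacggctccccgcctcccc
Dusp1 (chr17:26508473-26508722, minus strand): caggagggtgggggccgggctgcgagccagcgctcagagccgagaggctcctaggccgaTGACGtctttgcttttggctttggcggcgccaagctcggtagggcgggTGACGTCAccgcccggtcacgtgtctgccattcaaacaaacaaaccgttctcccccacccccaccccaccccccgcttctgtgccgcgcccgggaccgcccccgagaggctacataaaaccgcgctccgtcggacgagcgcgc
Nr4a1 (chr15:101266596-101266845, plus strand): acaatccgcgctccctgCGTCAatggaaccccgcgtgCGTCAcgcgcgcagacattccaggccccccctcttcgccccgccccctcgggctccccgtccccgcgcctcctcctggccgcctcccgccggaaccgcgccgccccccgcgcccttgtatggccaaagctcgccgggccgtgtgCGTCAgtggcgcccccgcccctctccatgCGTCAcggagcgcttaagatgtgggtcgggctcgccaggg
Zfp36 (chr7:28379229-28379478, minus strand): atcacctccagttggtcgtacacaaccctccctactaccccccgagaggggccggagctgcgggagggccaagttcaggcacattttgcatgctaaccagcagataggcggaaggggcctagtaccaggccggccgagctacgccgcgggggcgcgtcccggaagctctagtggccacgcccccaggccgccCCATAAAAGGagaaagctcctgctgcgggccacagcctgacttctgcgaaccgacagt
Motifs were sought on both strands in those 250 bases, so a site further upstream would not be seen. The full cyclic AMP response element TGACGTCA stood in 3 of 28 member promoters (Btg2, Dusp1 and Maff), and in 1.546% of the 32851 promoters in the table. Its core TGACG, which also lies within the full element, stood in 14 of 28, against 17.77% of all promoters. Nr4a1 held 4 copies of the core, all on the opposite strand (CGTCA as printed). A CArG box, the SRF site, was found in 2 of 28, Egr2 and Zfp36, against 1.467% of all promoters. In Zfp36 it ended 49 bases before the transcript start. TATAAA stood in 6 of 28, against 12.37% of all promoters, and in Fos it began 33 bases before the start. These matches describe letters, and no binding was measured.

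Most members were detected in every population, the exceptions being Dusp2 (in mSSC alone) and Fosl1 and Egr3 (in 0 CSP cells). The mean log2(FPKM + 1) was highest in mSSC for 25 of 34 members, in CSP for 6 (Fos, Jun, Jund, Egr2, Dusp1 and Klf4), in THY+ for 3 (Zfp36l1, Klf2 and Klf6) and in 6C3+ for 0. At least 50% of the cells had the transcript for 19 members in 6C3+, 20 in THY+, 27 in CSP and 24 in mSSC. The median cell had 18 of the 34 members detected in 6C3+, 19 in THY+, 24 in CSP and 23 in mSSC. No share over all genes was taken for the counts in this paragraph. Summed gene FPKM was also highest in mSSC at the median cell (906237), and the counts rest on FPKM as deposited.

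**Figure D1:**
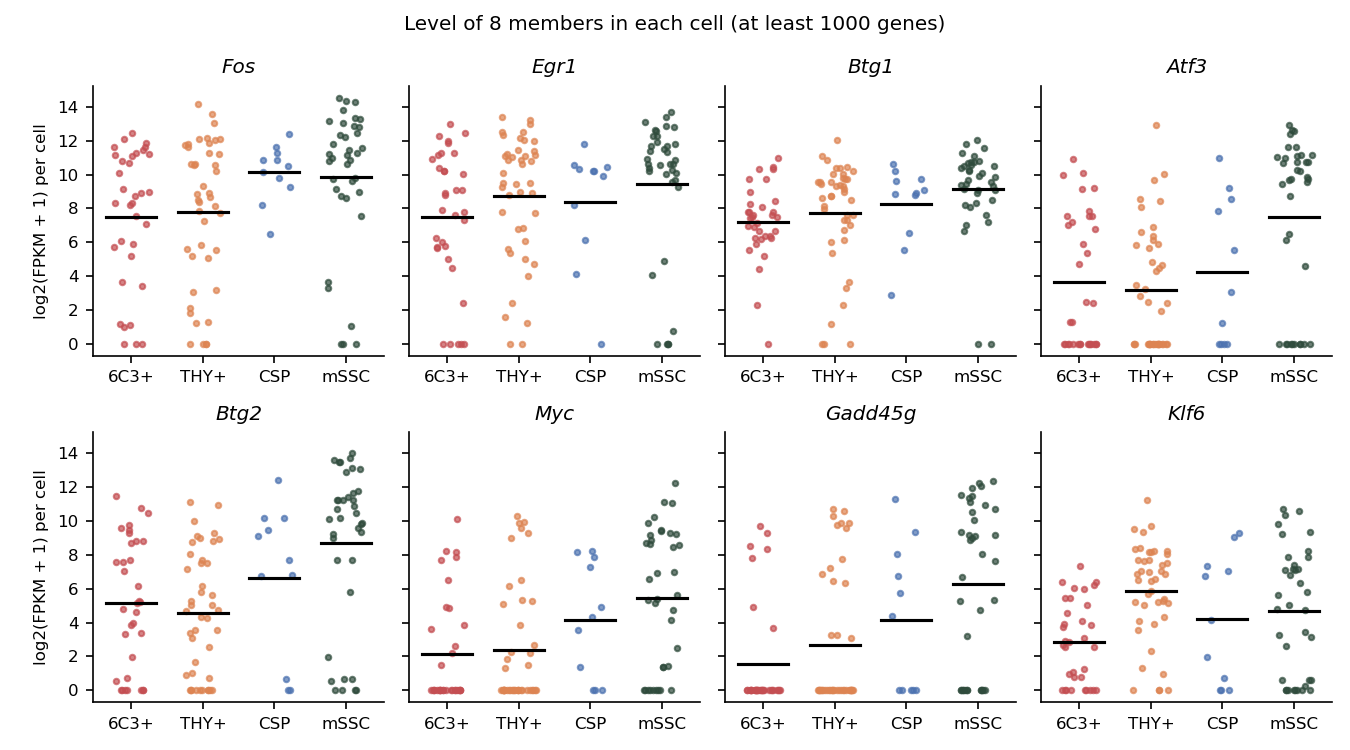
Level of 8 members in each cell with at least 1000 genes, as log2(FPKM + 1) on the vertical axis; points are cells, black bars are means, and columns are the 34 6C3+, 43 THY+, 11 CSP and 37 mSSC cells. Fos, Egr1 and Btg1 were present in most cells of every population, while Myc and Gadd45g were listed at 0 in most 6C3+ and THY+ cells and in fewer mSSC cells.

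Of the Fos family, the leucine zipper partners of Jun in AP-1, Fos was the most abundant. Its FPKM had a median of 370.1 in 6C3+ (0 to 5546), 408 in THY+ (0 to 18323.5), 1430.0 in CSP (87.2 to 5494) and 2301 in mSSC cells (0 to 23416). Fos was detected in 30 of 34, 39 of 43, 11 of 11 and 34 of 37 of these cells, so it was near universal and the populations overlapped in level. Mean log2(FPKM + 1) was 7.52 ± 4.06 in 6C3+, 7.79 ± 4.30 in THY+, 10.13 ± 1.67 in CSP and 9.85 ± 4.21 in mSSC (SD between cells). The means of 6C3+ and THY+, and those of CSP and mSSC, differed by less than these SDs, while THY+ and CSP differed by more than the SD of CSP and less than that of THY+. Fosb, a close paralog, had medians of 3.46, 1.60, 67.3 and 97.1 FPKM in 6C3+, THY+, CSP and mSSC cells. Fosl2 was detected in 15 of 34, 15 of 43, 6 of 11 and 21 of 37 cells in the same order. Fosl1, another Fos relative, was rare, with 1 of 34 6C3+, 1 of 43 THY+, 0 of 11 CSP and 7 of 37 mSSC cells.

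The Jun family, whose products pair with Fos proteins or with each other, was less uniform. Jun had a median of 10.1 FPKM in 6C3+, 40.8 in THY+, 34.4 in CSP and 46.8 in mSSC cells, and Jund, the member least dependent on stimulation, 7.11, 26.9, 29.1 and 23.5 FPKM in the same order. Both were lowest in 6C3+ and lay within 0.45 of each other between THY+, CSP and mSSC on the log2 scale of the means. Junb, in contrast, had medians of 11.8, 30.6, 68.4 and 240.2 FPKM in 6C3+, THY+, CSP and mSSC.

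Egr1, a zinc finger factor induced through SRF, had medians of 340.3 FPKM in 6C3+ (0 to 8112), 717 in THY+ (0 to 11078), 1167 in CSP (0 to 3557) and 1581 in mSSC cells (0 to 13477). It was detected in 29 of 34, 41 of 43, 10 of 11 and 32 of 37 cells. Its relatives Egr2 and Egr3 were detected in fewer cells: Egr2 in 8 of 34 6C3+, 10 of 43 THY+, 6 of 11 CSP and 11 of 37 mSSC cells, and Egr3 in 6, 7, 0 and 7 of them. The intervals of these shares overlapped between all 4 populations.

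Atf3, a stress-induced factor of the ATF and CREB family, showed one of the largest gaps among the members. Its FPKM had a median of 2.92 in 6C3+ (0 to 1922), 4.20 in THY+ (0 to 7714), 7.36 in CSP (0 to 1999) and 858 in mSSC cells (0 to 7853). The share of cells with Atf3 was 55.9% in 6C3+ (37.9 to 72.8), 53.5% in THY+ (37.7 to 68.8), 63.6% in CSP (30.8 to 89.1) and 73% in mSSC (55.9 to 86.2). The shares thus overlapped and the level among cells set mSSC apart: a group of mSSC cells reached high values while others were listed at 0. Atf3 lies on chromosome 1 of mm10 (191170296 to 191218039, minus strand). Maff, a small MAF factor without an activation domain, was detected in 5 of 34, 12 of 43, 3 of 11 and 13 of 37 cells.

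Among the IER genes, named for their immediate early response, Ier2 had medians of 0 FPKM in 6C3+, 9.36 in THY+, 157.6 in CSP and 308.6 in mSSC cells. It was detected in 14 of 34 6C3+ cells (41.2%, 24.6 to 59.3) and 30 of 37 mSSC cells (81.1%, 64.8 to 92), and these intervals did not overlap. Ier3 had medians of 11.7, 4.98, 83.2 and 168.2 FPKM in 6C3+, THY+, CSP and mSSC. Ier5 was found in 11 of 34, 13 of 43, 2 of 11 and 17 of 37 cells.

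The genes that restrain the response split. Dusp1, a phosphatase that inactivates MAP kinases, had medians of 78.9 FPKM in 6C3+ (0 to 2272), 207.04 in THY+ (0 to 11064), 274 in CSP (0 to 763) and 260.3 in mSSC cells (0 to 2581), which is nearly level across THY+, CSP and mSSC. Its relative Dusp2, best known from lymphocytes, was detected in 1 mSSC cell at 9.32 FPKM and in no cell of the other 3 populations. Zfp36, an RNA-binding protein that promotes decay of AU-rich mRNAs, had medians of 68.7, 8.62, 385 and 246 FPKM in 6C3+, THY+, CSP and mSSC. Its paralog Zfp36l1 ran the other way, with 62.5, 157.8, 4.23 and 22.3 FPKM. Nfkbia, which encodes the inhibitor that holds NF-kappa B in the cytoplasm, had medians of 36.3, 145.4, 24.8 and 289 FPKM in the same order. Socs3, an inhibitor of cytokine receptor signalling, was detected in 8 of 34, 19 of 43, 6 of 11 and 13 of 37 cells.

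Nr4a1, an orphan nuclear receptor, had medians of 11.4 FPKM in 6C3+ (0 to 2861), 21.04 in THY+ (0 to 879), 60.4 in CSP (0 to 498) and 309 in mSSC cells (0 to 4027). Nr4a2 was detected in 44.2% of THY+ to 54.5% of CSP cells. Nr4a3 was found in 6 of 34, 4 of 43, 2 of 11 and 6 of 37 cells.

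Btg2, an antiproliferative gene also induced by p53, followed Atf3 in pattern. Its FPKM had a median of 35.2 in 6C3+ (0 to 2810), 24.2 in THY+ (0 to 2217), 206 in CSP (0 to 5536) and 1186 in mSSC cells (0 to 17036). In mSSC it was detected in 30 of 37 cells, and the lower populations also had it in most cells (25 of 34, 30 of 43 and 8 of 11), at lower levels. Btg2 lies on chromosome 1 of mm10 (134075170 to 134079120, minus strand). Its paralog Btg1 was detected in nearly all cells, with medians of 173.5 FPKM in 6C3+, 433 in THY+, 486 in CSP and 804 in mSSC.

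Growth genes and damage genes differed in how many cells had the transcript. Myc, a growth-promoting factor and classical serum response gene, was detected in 13 of 34 6C3+ cells (38.2%, 22.2 to 56.4), 18 of 43 THY+ cells (41.9%, 27 to 57.9), 8 of 11 CSP cells (72.7%, 39 to 94) and 28 of 37 mSSC cells (75.7%, 58.8 to 88.2). The GADD45 proteins bind cell cycle and stress kinases. Gadd45b was detected in 12 of 34, 18 of 43, 8 of 11 and 28 of 37 cells, close to the shares of Myc. Gadd45g was detected in 7 of 34 6C3+ cells (20.6%, 8.7 to 37.9), 15 of 43 THY+ cells (34.9%, 21 to 50.9), 6 of 11 CSP cells (54.5%, 23.4 to 83.3) and 25 of 37 mSSC cells (67.6%, 50.2 to 82), and its maximum was 829 FPKM in 6C3+ and 5273 in mSSC. Gadd45a was found in 20.9% of THY+ to 32.4% of mSSC cells.

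The KLF factors, zinc finger regulators of quiescence and differentiation, varied among themselves. Klf4 had medians of 72.3 FPKM in 6C3+, 3.78 in THY+, 204.6 in CSP and 221.3 in mSSC cells. Klf6 had 5.81 in 6C3+ (0 to 158.5), 94.8 in THY+ (0 to 2449), 16.99 in CSP (0 to 628) and 31.9 in mSSC cells (0 to 1709), and so was highest in THY+. Klf2, a factor also known from endothelium under flow, had medians of 15.5, 11.4, 1.96 and 0 FPKM in 6C3+, THY+, CSP and mSSC. Klf10, induced by TGF beta, followed the majority, with 11.3, 43.04, 83.9 and 164.9 FPKM.

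Set against mSSC, most members were lower in the other 3 populations, which share mSSC as their reference and so are not independent. A difference of at least 1 in mean log2(FPKM + 1), which is 2-fold, was counted for genes whose average of both population means was at least 1. In 6C3+ minus mSSC 24 of the 34 members were lower by this measure and 0 higher, where 25.4% and 7.52% of all 4348 genes that passed were lower and higher. In THY+ minus mSSC 20 were lower and 2 higher, where 16.5% and 14.8% of 4786 genes were lower and higher. In CSP minus mSSC 14 were lower and 1 higher, where 14.2% and 23.9% of 4639 genes were lower and higher. The level filter was passed by 30 members in each of the 6C3+ and THY+ comparisons and by 29 in that of CSP. Over all 34 the median difference was -1.83 in 6C3+ minus mSSC, -1.32 in THY+ minus mSSC and -0.84 in CSP minus mSSC, beside medians of -0.36, 0.04 and 0.20 over all genes that passed. Relative to those medians the members lay lower by 1.47, 1.36 and 1.04.

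**Figure D2:**
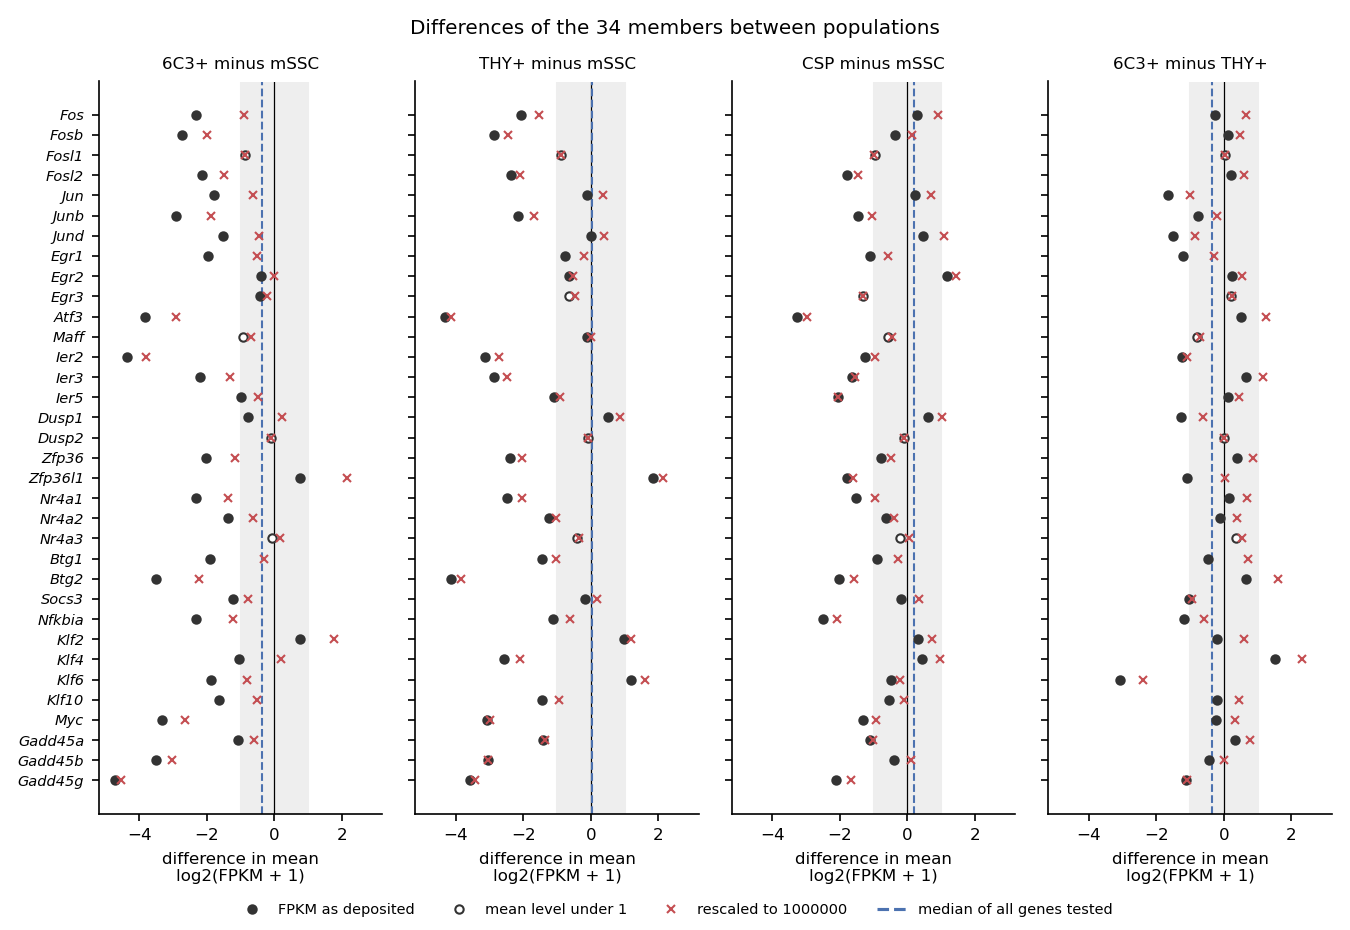
Difference in mean log2(FPKM + 1) on the horizontal axis for the 34 members in 4 comparisons; filled circles passed the level filter, open circles did not, crosses are values after rescaling each cell to 1000000, the grey band is within 2-fold, and the dashed line is the median of all genes that passed. Most members lay left of the band in 6C3+ minus mSSC (24 of 34) and THY+ minus mSSC (20 of 34). Zfp36l1, Klf2 and Klf6 lay right of 0 in THY+ minus mSSC. There all cells together put Zfp36l1 (-0.44), Klf6 (-0.90) and the median of all genes (-0.92) left of it.

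With rescaled FPKM fewer members were lower by 2-fold: 13 in 6C3+ minus mSSC, 17 in THY+ minus mSSC and 10 in CSP minus mSSC, where 9.46%, 13.9% and 10.7% of all genes were lower. The numbers higher were then 2, 3 and 3 members, where 22.4%, 19.1% and 31.5% of all genes were higher. The rescaled medians over the members were -0.74, -0.99 and -0.47, beside 0.30, 0.19 and 0.43 over all genes that passed. The gap between members and all genes was thus 1.04, 1.18 and 0.90 on the log2 scale.

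The values of the members furthest below mSSC in 6C3+ and THY+ are set side by side here for the 3 comparisons, which use the same mSSC cells. Gadd45g differed by -4.73 in 6C3+, -3.59 in THY+ and -2.12 in CSP, and Ier2 by -4.37, -3.13 and -1.25. Atf3 differed by -3.83, -4.33 and -3.26, and Btg2 by -3.51, -4.15 and -2.03. Gadd45b and Myc divided the populations: Gadd45b differed by -3.51 in 6C3+ and -3.05 in THY+ but -0.39 in CSP (0.10 after rescaling), and Myc by -3.33, -3.09 and -1.30. In CSP Nfkbia (-2.51), Ier5 (-2.04) and Zfp36l1 (-1.79) were also among the lowest. After rescaling Atf3 still differed by -2.91, -4.16 and -2.96, and Gadd45g by -4.53, -3.43 and -1.67. Ier2 and Myc stayed past 2-fold in 6C3+ (-3.81 and -2.66) and THY+ (-2.71 and -2.99) and came within it in CSP (-0.95 and -0.92). These gaps are of the order of the spread between cells: a called difference exceeded the SD of both populations for Ier2 in 6C3+ minus mSSC and for no other member against mSSC.

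A few members were level or higher. Dusp1 differed from mSSC by -0.78 in 6C3+, 0.50 in THY+ and 0.61 in CSP, and rescaling gave 0.23, 0.85 and 1.01. Zfp36l1 was higher in THY+ by 1.83 and in 6C3+ by 0.75, and lower in CSP by 1.79 on the log2 scale; the rescaled values were 2.12, 2.15 and -1.60. Klf6 was higher in THY+ by 1.19 and Egr2 in CSP by 1.18 in this set. With all cells, those under 1000 genes included, Klf6 (-0.90), Egr2 (-0.32) and Zfp36l1 in THY+ (-0.44) lay below mSSC. So did the median of all genes in that setting, at -0.92 in THY+ and -1.43 in CSP, where mSSC had 0 such cells to add. Klf2 differed by 0.76, 0.98 and 0.32 in 6C3+, THY+ and CSP, and by 1.77, 1.18 and 0.72 after rescaling. Fos, the best known member, differed by -2.33 in 6C3+, -2.07 in THY+ and 0.28 in CSP. Rescaling gave -0.89, -1.55 and 0.91, so the 2-fold difference in 6C3+ was lost.

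Shares of cells gave a narrower list than levels. The interval of the share lay below that of mSSC for Ier2, Myc, Gadd45b and Gadd45g in 6C3+ (4 of 34, where 1.72% of the genes tested had such intervals) and for Myc and Gadd45b in THY+ (2 of 34, where 2.57% did). In CSP, with 11 cells, it was the case for 0 of 34, where 0.216% of genes did. For 0 members did the interval lie above that of mSSC, where 2.74%, 3.91% and 1.53% of genes did in 6C3+, THY+ and CSP. For the other members that were lower by 2-fold, the shares overlapped between populations.

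The comparison of 6C3+ with THY+ depended on the processing. In 6C3+ minus THY+ 10 of 34 were lower by 2-fold and 1 higher, where 17.6% and 3.17% of 4639 genes were lower and higher, and the median over the members was -0.21 beside -0.35 over all genes. With rescaled values the median turned to 0.36 beside 0.15, with 4 members lower and 4 higher, where 7.23% and 12.9% of genes were. In cells with spike-ins of at most 20% it was -1.35 beside -0.75. Single members differed more. Klf6 was lower in 6C3+ by 3.06 on the log2 scale (2.82 ± 2.42 in 6C3+ and 5.89 ± 2.86 in THY+, SD between cells), more than either SD. Klf4 was higher by 1.51, which turned to -0.37 with all cells, beside a median of -0.98 over all genes in that setting. Jun (-1.65) and Jund (-1.52) were lower in 6C3+ as well, and rescaling brought Jund within 2-fold (-0.85).

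Within a population the members moved together from cell to cell. Pairs were described by a partial Spearman rho between cells, taken after the rank of the number of detected genes was removed, for genes present in 20% or more of its cells. Cells of a population share an index set, taken as a plate, so rho is a description of these cells. Index numbers within a set also differed in level, as given below, and this was not removed from rho. The median over member pairs was 0.275 in 6C3+ (29 members, 34 cells), 0.160 in THY+ (30 members, 43 cells), 0.211 in CSP (29 members, 11 cells) and 0.287 in mSSC (30 members, 37 cells). Over all gene pairs it was 0.0153, 0.0111, 0.00519 and 0.0112. A rho of at least 0.5 was reached by 64 of 406 member pairs in 6C3+ (15.8%, where 0.449% of all gene pairs did), 10 of 435 in THY+ (2.30%, where 0.286% did), 76 of 406 in CSP (18.7%, where 8.14% did) and 64 of 435 in mSSC (14.7%, where 0.267% did). In the 11 CSP cells high values were thus also common among all genes.

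**Figure D3:**
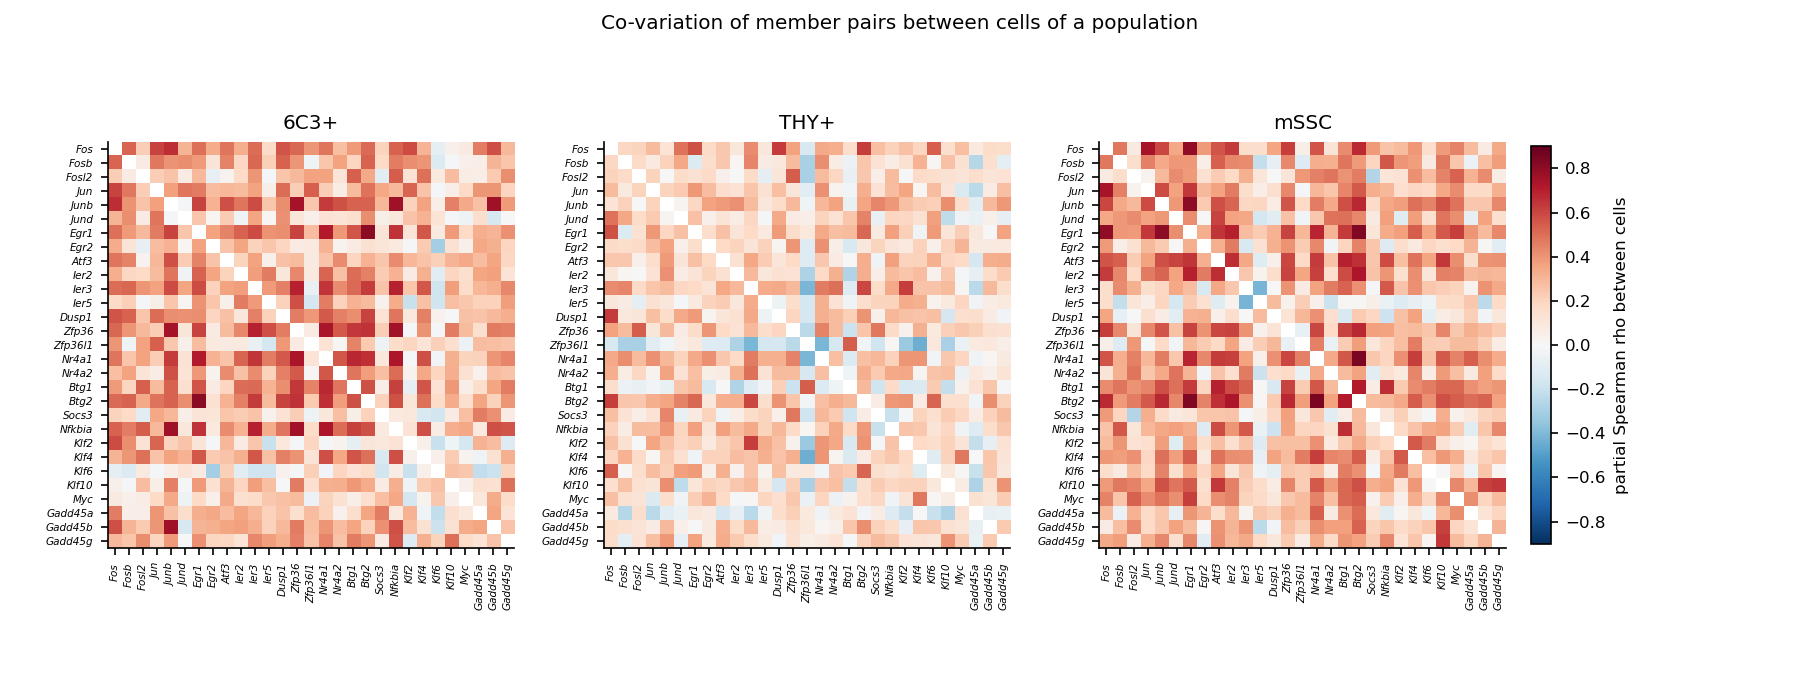
Partial Spearman rho between cells for pairs of members present in 20% or more of the 6C3+, THY+ or mSSC cells, from blue (negative) to red (positive), with gene number removed. The 6C3+ and mSSC panels hold many pairs above 0.5 (64 in each), and in THY+ the row of Zfp36l1 is mostly negative.

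The tightest pairs joined genes of different families. Egr1 and Btg2 had a partial rho of 0.81 in 6C3+, 0.52 in THY+, 0.33 in CSP and 0.83 in mSSC cells. Fos and Btg2 had 0.51, 0.62, 0.07 and 0.67 in that order, and Fos and Egr1 had 0.50, 0.57, -0.30 and 0.80. Zfp36 and Nr4a1 had 0.73, 0.44, 0.65 and 0.60. In 6C3+ Junb was joined to Nfkbia (0.77) and to Gadd45b (0.77), and in mSSC Nr4a1 to Btg2 (0.85). The THY+ maximum was Fos with Dusp1, at 0.63.

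Taken gene by gene, Btg2 had the highest median rho to the other members in mSSC (0.46) and in THY+ (0.29), and Nfkbia in 6C3+ (0.47). Nr4a1 and Btg2 had at least 0.27 in all 4 populations. Members that stood outside the rest differed by population. Klf6 had a median of 0.04 in 6C3+, Ier5 had 0.04 in mSSC, and Zfp36l1 had -0.12 in THY+, where it ran against Klf4 (-0.44), Ier3 (-0.41) and Nr4a1 (-0.41). In mSSC Ier3 and Ier5, which share a name and not a sequence family, had a rho of -0.42.

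A single score shows how the induced genes were spread over cells. The core mean is the mean log2(FPKM + 1) of 10 members (Fos, Fosb, Jun, Junb, Egr1, Ier2, Atf3, Dusp1, Zfp36 and Nr4a1). Its median was 4.39 in 6C3+ (0.00 to 8.82), 5.22 in THY+ (0.41 to 8.81), 6.91 in CSP (2.02 to 8.98) and 7.51 in mSSC cells (0.22 to 11.25). Every population held cells with at most 3 of the 10 core genes detected and cells with all 10. At least 8 of the 10 were detected in 15 of 34 6C3+ cells (44.1%, 27.2 to 62.1), 25 of 43 THY+ cells (58.1%, 42.1 to 73), 8 of 11 CSP cells (72.7%, 39 to 94) and 29 of 37 mSSC cells (78.4%, 61.8 to 90.2). The intervals of 6C3+ and mSSC overlapped narrowly. At most 4 of the 10 were detected in 10 of 34, 5 of 43, 2 of 11 and 5 of 37 cells. The core mean followed the number of detected genes in CSP (rho 0.75) and THY+ (0.44), and hardly in 6C3+ (-0.06) or mSSC (0.09). In THY+ it also ran against the spike-in share of the cell (-0.50), against 0.21 in 6C3+, -0.11 in CSP and -0.05 in mSSC. Their part in the core mean was not tested.

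Signalling genes above the response were also measured. Of 14 upstream transcription factors (among them Srf, Creb1, Elk3, Stat3 and Rela) 0 were lower by 2-fold in 6C3+ minus mSSC and in THY+ minus mSSC, and 1, Rela, was lower in CSP minus mSSC (-1.03). Their median differences were -0.15, 0.09 and -0.24. Only 6, 9 and 5 of them passed the level filter, with medians of -0.15, 0.12 and -0.95, and no test set them against the members. Of 12 MAP kinase pathway genes 2, 1 and 1 were lower and 2, 3 and 3 higher in 6C3+, THY+ and CSP minus mSSC, and 8, 7 and 8 passed the level filter. Beside both lists, 25.4%, 16.5% and 14.2% of all genes that passed were lower and 7.52%, 14.8% and 23.9% higher. Nras was lower in all 3 (-2.67, -2.91 and -1.34; rescaled -1.55, -2.80 and -0.96) and Map2k1, a kinase that activates ERK, was higher in all 3 (1.65, 1.59 and 1.89). Srf itself was detected in 3 of 34 6C3+, 12 of 43 THY+, 3 of 11 CSP and 8 of 37 mSSC cells.

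Genes outside the members that are known to respond to serum or stress were lower in part. Of 30 such genes 11 were lower and 1 higher in 6C3+ minus mSSC, 13 and 3 in THY+ minus mSSC, and 8 and 2 in CSP minus mSSC, with medians of -0.50, -0.48 and -0.54. Of all genes that passed, 25.4%, 16.5% and 14.2% were lower and 7.52%, 14.8% and 23.9% higher. With rescaled FPKM 7, 12 and 9 of the 30 were lower and 4, 4 and 4 higher, with medians of -0.20, -0.34 and -0.26. Of all genes 9.46%, 13.9% and 10.7% were then lower and 22.4%, 19.1% and 31.5% higher. Cebpb, an inflammatory response factor, was lower by 3.57, 3.99 and 4.13 on the log2 scale in 6C3+, THY+ and CSP. Cyr61, a matricellular target of YAP and SRF, differed by -3.10 in 6C3+, -2.56 in THY+ and 2.67 in CSP. Of 10 heat shock genes 9 were lower in 6C3+ minus mSSC, 3 in THY+ minus mSSC and 3 in CSP minus mSSC, where 1 was higher, with medians of -2.21, -0.92 and -0.42. With rescaled FPKM 7, 3 and 1 were lower and 0, 0 and 3 higher, with medians of -1.38, -0.62 and -0.09. Dnajb1, a co-chaperone induced by heat shock factor, had medians of 0 FPKM in 6C3+, 0 in THY+, 259.7 in CSP and 95.6 in mSSC cells. Between cells the mean of the 30 genes followed the core mean in each population (partial rho 0.76 in 6C3+, 0.49 in THY+, 0.56 in CSP and 0.66 in mSSC). The heat shock mean did so at 0.52, 0.35, 0.37 and 0.51. The mean of 8 housekeeping genes had 0.35, 0.29, 0.05 and 0.41. Single genes of that list were split, so its mean is not a neutral scale. In 6C3+ Eef1a1 had 0.54, Ppia 0.17, Gapdh 0.14, B2m 0.05 and Actb -0.22. The median difference of the housekeeping list from mSSC was -1.30, -0.83 and -0.66 in 6C3+, THY+ and CSP, and -0.35, -0.73 and -0.21 after rescaling.

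Within a population cartilage genes moved with the core mean (partial rho 0.61 in 6C3+, 0.46 in THY+, 0.43 in CSP and 0.49 in mSSC). The 7 chondrocyte genes (Col2a1, Acan, Sox9, Col9a1, Col9a2, Matn1 and Comp) differed from mSSC by medians of -4.95 in 6C3+ and -6.53 in THY+, with 7 of 7 lower, and by 0.17 in CSP. Col2a1, the main cartilage collagen, had medians of 938.5 FPKM in 6C3+, 7.66 in THY+, 22905.6 in CSP and 22487.5 in mSSC cells. The cells lay in separate ranges of the chondrocyte mean, so rho with the core mean is given within them. Partial values, with the rank of gene number removed, stand in parentheses. In 6C3+ 15 cells had a chondrocyte mean of 0.18 to 3.04 and a median core mean of 1.65, and 19 cells had 5.08 to 8.99 and a median core mean of 5.98. Within these ranges rho was 0.02 and 0.18 (partial -0.05 and 0.17), so the relation in 6C3+ rests on the gap between the ranges. In mSSC 33 of 37 cells had a chondrocyte mean of 6.26 to 12.49, with a rho of 0.34 (partial 0.29). The other 4, at 0.75 to 2.897, had core means of 0.40 to 5.34. In CSP 10 of 11 cells had 10.11 to 12.68, with a rho of 0.41 (partial 0.20). THY+ cells ran without a gap as wide. In the 32 THY+ cells under a chondrocyte mean of 4 rho was 0.43 (partial 0.42). In the 11 at or above that mean it was 0.25 (partial 0.04). Co-variation of the members remained above that of all genes within the ranges: the median partial rho over member pairs was 0.120 in the 15 and 0.173 in the 19 6C3+ cells, beside 0.00215 and 0.0120 over all gene pairs, and 0.253 in the 33 mSSC cells, beside 0.0111. The part of cartilage identity in the level of the members was not tested.

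**Figure D4:**
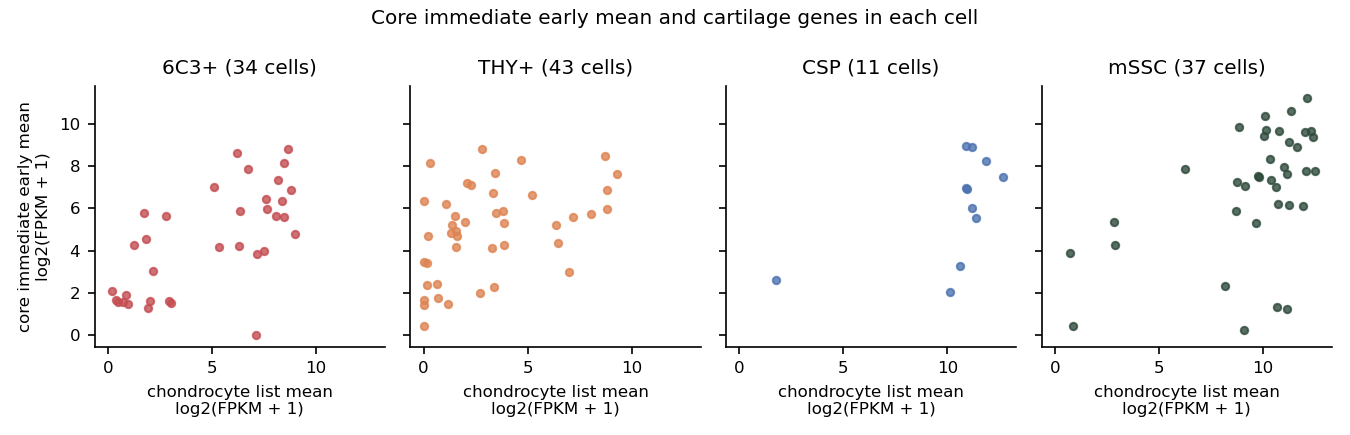
Core immediate early mean (vertical axis) against the mean of 7 chondrocyte genes (horizontal axis), both in log2(FPKM + 1), with a point for each cell and a panel for each population. In 6C3+ the cells form a group with a chondrocyte mean under 4 and a low core mean (median 1.65) and another above it (median 5.98), while nearly all CSP and mSSC cells lie to the right.

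Endothelial, myeloid and erythroid markers were low, while pericyte genes reached high means in some cells. The mean of 7 endothelial genes was at most 1.58 in any 6C3+ cell, 0.83 in any THY+ cell, 0 in any CSP cell and 0.76 in any mSSC cell. The mean of 7 myeloid genes was at most 0.36, 0.86, 0 and 0.92 in 6C3+, THY+, CSP and mSSC cells, and Ptprc and Pecam1, the defining genes of blood cells and endothelium, were detected in 0 cells of the main set. Erythroid genes reached at most 0.02, 0.53, 0 and 0.46. The mean of 6 skeletal muscle genes reached more, at most 0.71 in 6C3+, 2.62 in THY+, 1.96 in CSP and 2.19 in mSSC cells. Pericyte genes were higher in THY+ than in mSSC for 7 of 7, by a median of 2.26. Their mean log2 level reached 10.11 in THY+, 8.02 in mSSC, 5.81 in 6C3+ and 1.14 in CSP cells, from a minimum of 0.00. In THY+ this mean had a partial rho of -0.34 with the core mean. Its part in the THY+ levels was not tested. A value of 0 does not show that a transcript was absent from the cell, and a lower level per cell also lowers the share of cells at or above 1 FPKM.

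The genes outside the members that followed the core mean most closely were named by their partial rho, the top 10 in each of 6C3+, THY+ and mSSC. In mSSC those reported were Dnajb1 (0.76), Pde4b, Ifrd1, Ddit3, Fbxl5, Tsc22d1, Pnrc1, Neat1 and Vill. Of these Ddit3 and Dnajb1 are stress genes, and Ifrd1 and Pnrc1 are known as inducible. In 6C3+ those reported were Nfkbiz (0.73), an NF-kappa B regulator, Col9a1, Tcea3, Cyr61, Ptp4a1, Sdc4, Wisp1, Hapln1 and Trabd2b (0.62). Col9a1 and Hapln1 are cartilage matrix genes, which lie under the gap between ranges described above. In THY+ they were Enpp1 (0.62), Acan, Atp10a, Chd9, Bmp2, Ddx24, Fmod, Jmy, Ldha and Por (0.50). The lists were then looked up in the other populations. The 10 from 6C3+ had a median rho of 0.261 in THY+ (10 of 10 positive) and 0.327 in mSSC (8 of 10 positive), beside 0.0331 and 0.0242 over all genes. The 9 genes from mSSC measured in 6C3+ had 0.356 (9 of 9 positive), beside 0.0613. The 8 from mSSC measured in THY+ had 0.169 (8 of 8 positive), beside 0.0331. The 10 from THY+ had 0.287 in 6C3+ (7 of 10 positive), beside 0.0613, and 0.0177 in mSSC (5 of 10 positive), beside 0.0242.

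Cells with under 1000 genes, 58 of 6C3+, 29 of THY+ and 15 of CSP, still held several of the members. Fos was detected in 32 of 58 6C3+ cells (55.2%), 25 of 29 THY+ cells (86.2%) and 8 of 15 CSP cells (53.3%) of this kind, and Egr1 in 31, 19 and 6 of them. In THY+ the Fos share was close to the 90.7% of the cells with at least 1000 genes. Btg1, detected in 97.1%, 93.0% and 100% of the fuller cells of 6C3+, THY+ and CSP, was found in 6 of 58 (10.3%), 1 of 29 (3.45%) and 5 of 15 (33.3%) of the low-gene cells. In low-gene cells the intervals of Fos and Btg1 were apart in 6C3+ (41.5 to 68.3 and 3.89 to 21.2) and THY+ (68.3 to 96.1 and 0.0873 to 17.8) and overlapped in CSP (26.6 to 78.7 and 11.8 to 61.6). Myc was detected in 0 of 58, 2 of 29 and 0 of 15 of the low-gene cells, and Gadd45g in 0, 1 and 0. Among genes outside the members Actb was detected in 37 of 58, 25 of 29 and 11 of 15 of these cells and Gapdh in 2, 2 and 2, so the shares of Fos lay near that of Actb. FPKM in these cells was low: the Fos median was 2.34 in 6C3+, 15.01 in THY+ and 1.37 in CSP. At least 8 of the 10 core genes were detected in 1, 2 and 1 of these cells.

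**Figure D5:**
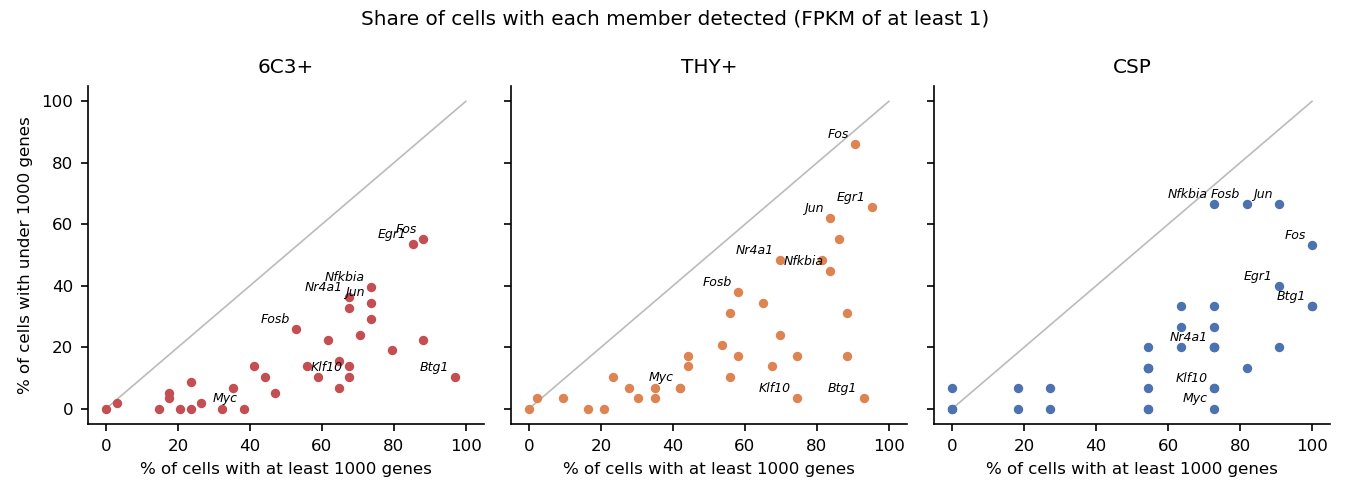
Share of cells with each of the 34 members detected, among cells with at least 1000 genes (horizontal axis, %) and cells with under 1000 genes (vertical axis, %), for 6C3+, THY+ and CSP; the line marks equal shares. Fos in THY+ (90.7% and 86.2%) lies near the line, and Btg1 (93.0% and 3.45%) lies far below it.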

How the data were processed

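FPKM values of single cells were used as deposited by the authors, in 1 table of 24388 genes and 92 spike-ins, with 0 unmatched columns. Per the submitters' processing notes the build was mm10 and SAMtools was used. The sources used here name no aligner, FPKM program or annotation, and depth per cell is unknown. The members, the other gene lists, the comparisons and the rule for named genes were chosen with earlier results of these data known.

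Levels were compared as differences of mean log2(FPKM + 1), with Python 3.11.15, numpy 2.4.6, pandas 2.3.3 and scipy 1.17.1. Named genes were all members, the 10 genes per population most like the core mean, and up to 3 genes of each other list; further ones were chosen after their values were seen, as was the chondrocyte mean of 4 that divides the ranges. A gene that this rule names in 6C3+ and mSSC is not reported here. Gene positions are from GENCODE vM21. In a simulation in which 200 genes were given an 8-fold change, 91% (6C3+ minus mSSC), 93.5% (THY+ minus mSSC), 80% (CSP minus mSSC) and 96.5% (6C3+ minus THY+) had the right sign. Both groups were drawn with replacement from the second population named, so no difference in plate, spike-ins or library total entered. Only the sign was scored, so the simulation gives no rate of right or false calls at 2-fold. Alternatives were other pseudocounts, rescaling, all cells, at least 2000 genes, the log2 of the mean, no level filter, matched gene numbers, other correlation and detection settings and, added after seeing the data, cells with spike-ins of at most 20%.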

Additional observations from a re-analysis of the deposited data

How the results depend on the processing

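No paired analysis was possible because cells carry no shared replicate number and each population is 1 sample. The member medians against mSSC stayed negative under all 9 alternatives. They ran from -3.69 to -0.74 in 6C3+, -2.83 to -0.62 in THY+ and -3.003 to -0.47 in CSP. Not all 9 could move them. The level filter does not enter these medians, so leaving it out repeats the reported values. In CSP minus mSSC the spike-in limit of 20% kept the same 11 and 37 cells and repeats them too. All cells, which gave the lowest medians, added low-gene cells to the other populations and none to mSSC. Set against the median of all genes the member medians ranged from -2.09 to -1.04, -1.91 to -1.04 and -1.57 to -0.59. Of the 72 member values past 2-fold, 48 stayed past it in the same direction after rescaling, 54 with a pseudocount of 10, and 64 or more under each of the other 7. Without the level filter all 72 stay by construction.

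Members lower by 2-fold numbered 27 (all cells) and 24 (log2 of the mean) in CSP minus mSSC, 13 (rescaled) in 6C3+ minus mSSC, and 3 (pseudocount of 10), 4 (rescaled) and 21 (spike-ins of at most 20%) in 6C3+ minus THY+. Members higher numbered 0 (pseudocount of 10), 3 (rescaled) and 0 (all cells) in CSP minus mSSC; 1 (pseudocount of 10), 0 (all cells), 1 (log2 of the mean) and 5 (spike-ins of at most 20%) in THY+ minus mSSC; 2 (pseudocount of 0.1) and 2 (rescaled) in 6C3+ minus mSSC; and 0 (pseudocount of 10), 4 (rescaled), 0 (all cells), 3 (log2 of the mean) and 0 (spike-ins of at most 20%) in 6C3+ minus THY+. All genes shifted too. Their median was -0.93 in CSP minus mSSC with the log2 of the mean, and 0.69 in THY+ minus mSSC with spike-ins of at most 20%. With all cells it was -0.92 in THY+ minus mSSC, -1.43 in CSP minus mSSC and -0.98 in 6C3+ minus THY+. Among these alternatives the share of all genes past 2-fold is given above for rescaled values only, so the other counts describe the settings. The median over the members in 6C3+ minus THY+ reversed to 0.36 after rescaling. Single members reversed too: with all cells, Egr2 in CSP (-0.32), Zfp36l1 (-0.44) and Klf6 (-0.90) in THY+ minus mSSC and Klf4 in 6C3+ minus THY+ (-0.37); with the log2 of the mean, Klf6 in THY+ minus mSSC (-0.15) and Klf4 in 6C3+ minus THY+ (-0.25); rescaled, Klf4 in 6C3+ minus mSSC (0.19) and Zfp36l1 in 6C3+ minus THY+ (0.0271); and with spike-ins of at most 20%, Nfkbia in THY+ minus mSSC (0.44). All cells raised the median rho over member pairs to 0.453 in 6C3+, 0.369 in THY+ and 0.530 in CSP, and the 6C3+ partial rho was 0.384 for members in at least 50% of cells. The cause of these shifts was not tested. Depth is unknown, so no detection limit can be given.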

Other observations

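Genes of the integrated stress and p53 responses, which share Atf3, Btg2 and Gadd45a as targets with the members, were mixed. Of 10 such genes 3 were lower and 0 higher by 2-fold in 6C3+ minus mSSC, 2 and 0 in THY+ minus mSSC, and 2 and 2 in CSP minus mSSC. The level filter was passed by 6, 6 and 8 of them. Of all genes that passed, 25.4%, 16.5% and 14.2% were lower and 7.52%, 14.8% and 23.9% higher. With rescaled FPKM 2, 2 and 0 of the 10 were lower and 0, 0 and 3 higher. The shares of all genes were then 9.46%, 13.9% and 10.7% lower and 22.4%, 19.1% and 31.5% higher. Ddit3, a pro-apoptotic stress factor, was detected in 7 of 34 6C3+, 16 of 43 THY+, 5 of 11 CSP and 23 of 37 mSSC cells. Asns, an amino acid response gene, was higher in CSP (3.33). Atf4, which drives that response, differed from mSSC by -1.73, -0.82 and -1.32 in 6C3+, THY+ and CSP, and by -0.38, -0.38 and -0.89 after rescaling. Between cells, Ddit3 had a partial rho with the core mean of 0.35 in 6C3+, 0.00884 in THY+ and 0.63 in mSSC, and the difference between populations was not tested.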
